A study of Mus musculus with 9 samples.

Results

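The expression of 32 genes for protein folding in the endoplasmic reticulum (ER) and for the unfolded protein response was analyzed in B16 cells, a mouse melanoma cell line. The genes were chosen by name for their known roles, with earlier results of these data already known. Each of the 32 is listed under its own symbol among the 22972 gene names of the RNA sequencing files. All cells were wild-type B16 cells on PDMS film, a flexible silicone sheet, in DMEM with serum, and were sampled on Day 3. Of the 9 libraries, 3 came from unstrained control cells (CTL), 3 from cells on film under cyclic straining for 72 h (MS), and the other 3 from cells that received blebbistatin, an inhibitor of myosin, at 100 ng/mL for 72 h. For the third group the labels name blebbistatin alone, whereas the methods of the study apply it together with straining, and it is called MS + Blebb. here. Should these cells not have been strained, the comparison with MS would differ in straining as well as in blebbistatin. The labels call the replicates parallel experiments of 1 line and do not say that they were separate cultures, so the p-values measure the spread between these libraries, which may be technical. Each value is an FPKM, a number of sequenced fragments divided by the length of the gene and by the fragment total of the library, so that levels of different genes can be compared.

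In the ER, newly made secreted and membrane proteins are translocated, glycosylated, oxidized and folded. When unfolded proteins accumulate, the sensors Ern1 (IRE1), Eif2ak3 (PERK) and Atf6 start the unfolded protein response. Ern1 splices the mRNA of Xbp1, cleaved Atf6 and spliced Xbp1 raise the transcription of chaperones and of degradation factors, and Eif2ak3 slows translation and favors that of Atf4. Melanoma cells send pigment enzymes such as tyrosinase through this compartment, where Calr and Canx help them to fold.

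The libraries differed from each other apart from their groups. On the first principal component of all 10109 genes tested, which held 70.4% of the variance, CTL replicate 1 (-42.1) and MS + Blebb. replicate 2 (-43.9) stood apart from the others, which lay between -10.0 (MS replicate 3) and 35.8 (MS replicate 1). Values that rest on these libraries are also given with 1 of them left out, or with both left out together with MS replicate 3, the lowest of the MS libraries on this component. The 8 melanocyte markers (Pmel, Tyr, Tyrp1, Dct, Mlana, Mitf, Sox10 and Slc45a2) summed to between 7640 and 13445 FPKM in a library. Fibroblast markers summed to at most 0.567 FPKM, with Dcn and Lum at 0 in all libraries. Macrophage markers summed to between 2.13 and 4.32 FPKM, with Ptprc at 0, and keratinocyte markers to at most 0.0314 FPKM. The depth is unknown, so precision was judged from the replicates.

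The promoters of these genes are known for short stress elements, which are shown here because the response is read through them. RefSeq promoter sequences (build GRCm38.p6) were found for 27 of the 32 genes, with Ero1l as Ero1a and Ero1lb as Ero1b. They were not found for Hyou1, Manf, Atf6, Derl1 and Sec61a1. The 250 bases before the annotated start were searched on both strands. The ER stress response element (ERSE), CCAAT and CCACG separated by any 9 bases, is known to be bound by NF-Y together with Atf6 or Xbp1. It was present in 10 of the 27 promoters (37.0%), against 37 of all 32851 windows of the same length (0.113%). All windows include those of these genes, which were chosen for known roles in this response, so the shares are a description and not a test. The 10 are Calr, Canx, Creld2, Derl3, Dnajc3, Ero1lb, Hsp90b1, Hspa5, Pdia6 and Syvn1, and only Hsp90b1 among them holds 2 exact copies. Copies with a mismatch in the fixed letters were not searched for. The related ERSE-II (ATTGG and CCACG separated by any 1 base) was found in Herpud1 and in 0.0304% of all windows. The core of the unfolded protein response element (UPRE, TGACGTG) was found in Hspa5 and in 1.65% of all windows. The Atf4-type element CARE (TGATGNAA) was found in Herpud1 and in 3.45% of all windows. The CCACG alone, which is part of ERSE and ERSE-II, was in 21 of 27 promoters and in 28.3% of all windows. A match is a description of the letters, not a site shown to be bound. Sequences from 5 promoters of well-known stress targets that held a match are shown, 5′ to 3′ on the strand of the gene. They include the only promoter of the 27 with ERSE-II. Pdia4, Sdf2l1 and Xbp1 were picked with them as well-known targets. Their promoters held no ERSE, ERSE-II, UPRE core or CARE and are not shown. Capitals mark the matched elements. The stretch of Hspa5 (chr2:34771923-34772053, plus strand) begins 167 bases before the start and holds the UPRE core and then an ERSE. The stretch of Hsp90b1 (chr10:86705523-86705666, minus strand) holds both copies, the second in the opposite orientation. The ERSE of Calr (chr8:84847065-84847103, minus strand) and of Creld2 (chr15:88819510-88819548, plus strand) are also read on the opposite strand to the gene. The stretch of Herpud1 (chr8:94386307-94386397, plus strand) holds the CARE, in the opposite orientation, and then the ERSE-II.
Hspa5: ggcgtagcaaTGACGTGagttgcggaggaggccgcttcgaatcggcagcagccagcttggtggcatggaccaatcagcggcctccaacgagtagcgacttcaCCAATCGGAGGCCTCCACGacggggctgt
Hsp90b1: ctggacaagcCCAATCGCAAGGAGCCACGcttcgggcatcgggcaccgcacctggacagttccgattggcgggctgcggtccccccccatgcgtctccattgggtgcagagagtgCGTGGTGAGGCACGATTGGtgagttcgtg
Calr: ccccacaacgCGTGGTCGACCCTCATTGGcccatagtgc
Creld2: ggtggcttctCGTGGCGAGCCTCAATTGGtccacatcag
Herpud1: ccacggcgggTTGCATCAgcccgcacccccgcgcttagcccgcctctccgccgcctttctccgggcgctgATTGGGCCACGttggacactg

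**Figure D1:**
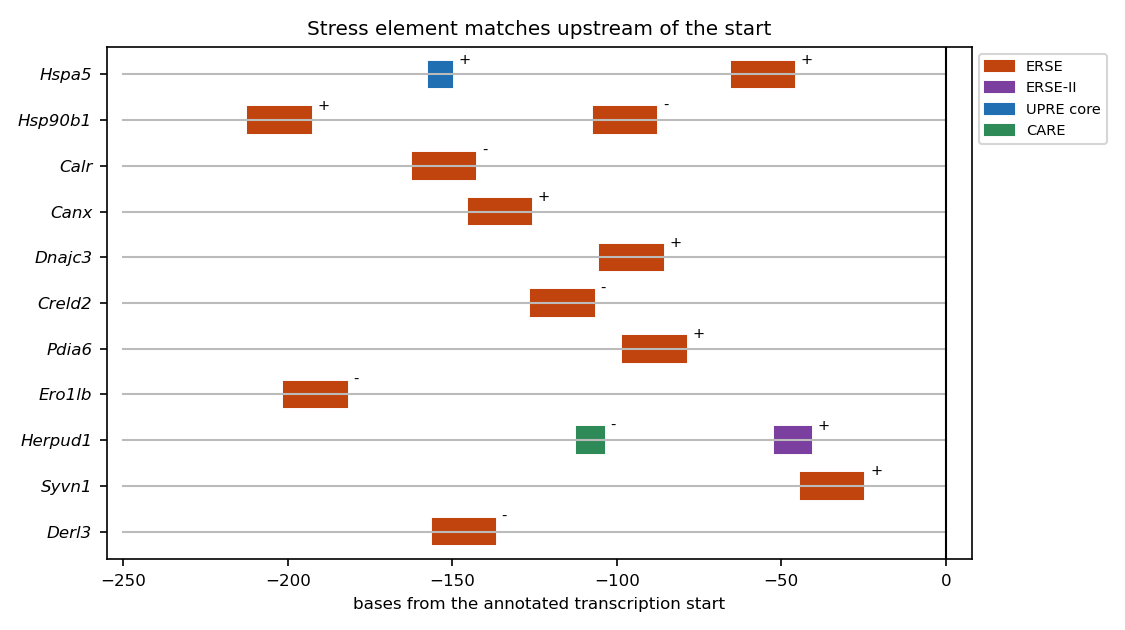
Position of the stress elements in the 11 promoters that hold at least 1 of them, in bases from the annotated transcription start on the x axis, with + or - for the strand of the match relative to the gene. ERSE matches lie between positions -212 and -26, and Herpud1 is the promoter with ERSE-II and CARE.

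All 4 matched promoters of the ATPase and lectin chaperones held an ERSE. Among the other roles, it was found in 2 of 5 co-chaperone promoters, 2 of 6 for disulfide formation, 0 of 3 for the sensors and Xbp1, 2 of 7 for ER-associated degradation and 0 of 2 for the translocon. The map of elements shows that the distance to the start differed from gene to gene.

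The 32 genes together made up between 0.454% (CTL replicate 1) and 0.644% (CTL replicate 3) of all FPKM in a library, or 2196 to 2857 FPKM. The mean over all libraries was above 100 FPKM for 7 genes, from 10 to 100 FPKM for 19 and from 1 to 10 FPKM for 5. Derl3 was the remaining gene, at or near 0. Calr (571 FPKM) and P4hb (470.3 FPKM) were the highest, followed by Sec61a1 (171 FPKM), Hspa5 (128 FPKM) and Pdia4 (125 FPKM). In Calr and P4hb the ranges over libraries overlapped, as did those of Hspa5 and Pdia4. The 31 genes that averaged 1 FPKM or more were tested. Their highest library was 1.17 times (Dnajb11) to 11.2 times (Hsp90b1) the lowest. The median of this ratio was 1.60, against 1.74 for all genes tested.

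**Figure D2:**
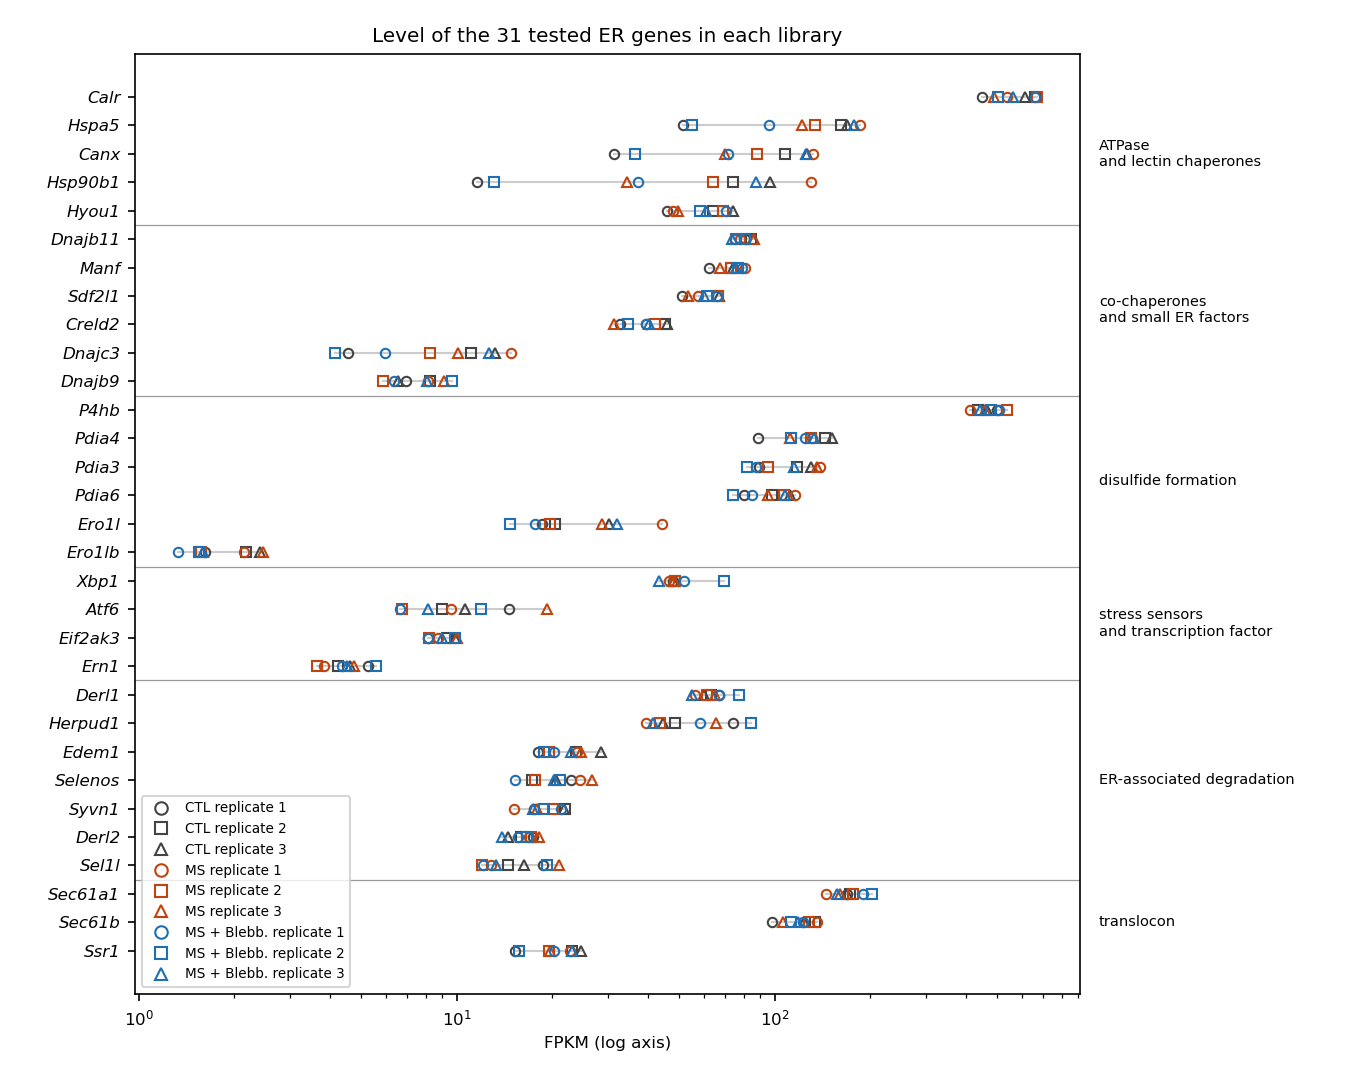
FPKM of the 31 tested genes (log axis) in each of the 9 libraries, by role, with color for the group and shape for the replicate. Most genes keep to a narrow range, while Hsp90b1, Canx, Hspa5, Dnajc3 and Ero1l spread over 3 times or more.

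The plot of levels shows 24 genes with a ratio of highest to lowest library under 2, 2 genes from 2 to 3 (Atf6 and Herpud1) and 5 genes of 3 or more (Hsp90b1, Canx, Hspa5, Dnajc3 and Ero1l). The spread lay within the groups. On the log2(FPKM + 1) scale the SD within groups was between 0.074 and 1.32 for the 31 genes, with a median of 0.23, and the median was 0.25 for all genes tested. CTL replicate 1 held the lowest value of 12 of the 31 genes, and no other library held more than 4 of the lowest values. MS replicate 1 held the highest value of 9 genes, MS replicate 3 of 7, and CTL replicate 3 and MS + Blebb. replicate 2 of 6 each.

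The ATPase and lectin chaperones (Hspa5, Hsp90b1, Hyou1, Calr and Canx) showed no difference between the groups larger than the spread between replicates, and their levels followed single libraries. Hspa5 encodes BiP, the main Hsp70 of the ER and the partner of the sensors. It was at 51.5, 161 and 168 FPKM in CTL, 185, 134 and 122 FPKM in MS and 95.7, 55.0 and 177 FPKM in MS + Blebb. (replicates 1 to 3). CTL replicate 1 and MS + Blebb. replicate 2 were the lowest, and all groups overlapped. The CTL mean was 127 ± 65.5 FPKM (SD, n = 3), the MS mean 147 ± 33.7 FPKM and the MS + Blebb. mean 109 ± 62.1 FPKM. In MS against CTL its log2 fold change was 0.37 (standard error 0.51). The value of MS + Blebb. against MS was -0.56 (standard error 0.51). Without CTL replicate 1 the first value was -0.19, and with MS replicate 3 and MS + Blebb. replicate 2 left out as well it was -0.065. The second value was -0.15 without MS + Blebb. replicate 2, -0.98 without MS + Blebb. replicate 3 and -0.27 with the same 3 libraries left out.

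Hsp90b1 (GRP94), the ER member of the Hsp90 family, had the widest range of the 31 genes. It was at 11.5, 74.0 and 96.5 FPKM in CTL, 129.8, 64.0 and 34.4 FPKM in MS and 37.1, 13.1 and 87.4 FPKM in MS + Blebb. The order of libraries resembled that of Hspa5, with the same libraries lowest and MS replicate 1 highest, and the groups overlapped. Its log2 fold change was 0.57 (95% confidence interval -1.43 to 2.57) in MS against CTL. The value of MS + Blebb. against MS was -0.89 (-2.89 to 1.11). Without CTL replicate 1 the first value was -0.35, and without the 3 libraries named above the values were 0.11 and -0.67. The second value was -0.21 when MS + Blebb. replicate 2 was left out and -1.53 when replicate 3 was. Canx, the membrane-bound lectin chaperone, was chosen for its values after they were seen. It was at 31.3, 107 and 126 FPKM in CTL, 132, 87.7 and 69.5 FPKM in MS and 71.5, 36.4 and 126 FPKM in MS + Blebb. The low and high libraries were again those of Hspa5.

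Calr, the soluble lectin chaperone, was the most abundant of the 32 genes and varied less. It was at 449, 659 and 613 FPKM in CTL, 539, 668 and 489 FPKM in MS and 657, 503 and 560.2 FPKM in MS + Blebb. CTL replicate 1 was again lowest, but the highest library was only 1.49 times this value. Hyou1, a large Hsp70-like protein that assists BiP in nucleotide exchange, was at 45.7, 64.0 and 74.0 FPKM in CTL, 47.8, 68.7 and 49.6 FPKM in MS and 70.4, 58.3 and 60.9 FPKM in MS + Blebb. Its order of libraries differed from that of Hspa5, with MS replicate 1 near the bottom. The log2 fold changes of MS against CTL were -0.013 (standard error 0.19) for Calr and -0.13 (standard error 0.20) for Hyou1. As a class, the 5 genes summed to between 589 FPKM in CTL replicate 1 and 1077 FPKM in CTL replicate 3, both of the same group.

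**Figure D3:**
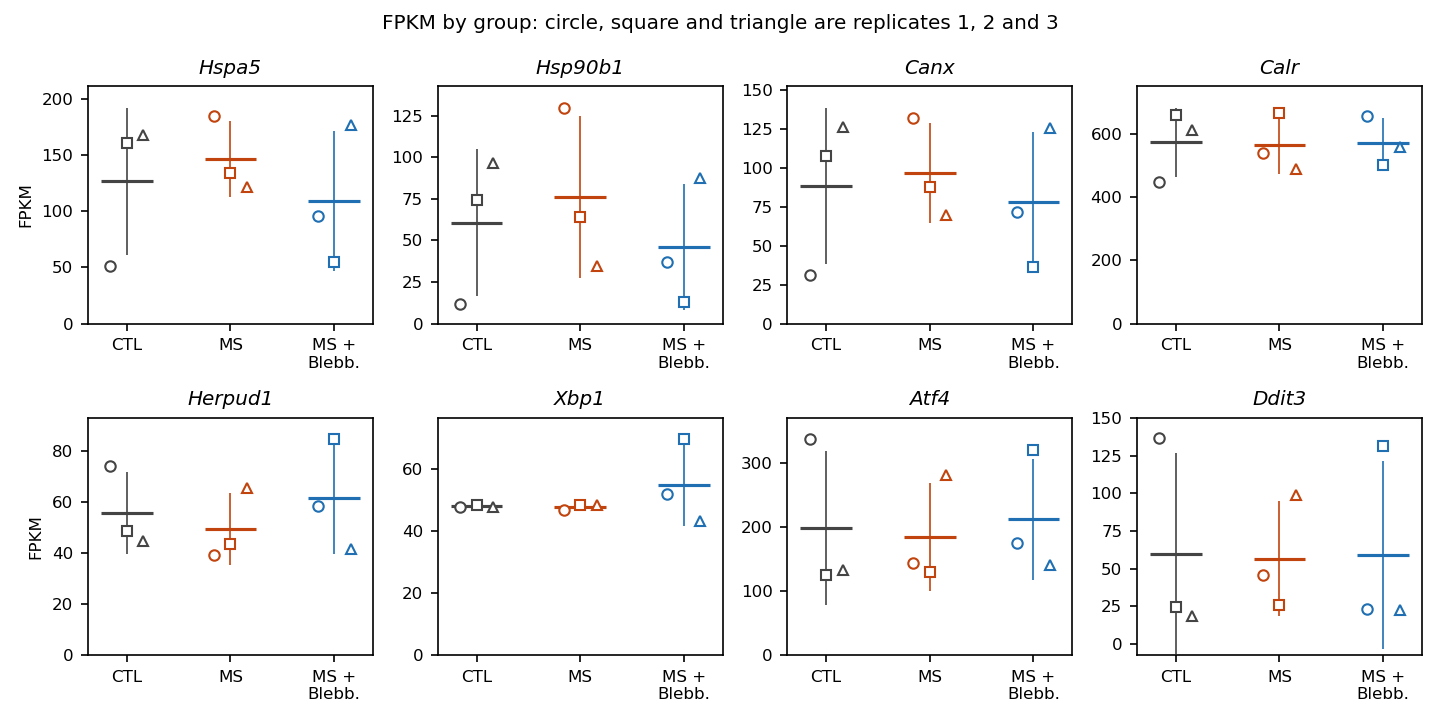
FPKM in each library for the chaperones Hspa5, Hsp90b1, Canx and Calr, for Herpud1 and Xbp1, and for Atf4 and Ddit3 of the PERK branch. Horizontal bars are group means, vertical lines are 1 SD (n = 3) and run below 0 for Ddit3 only, and symbols are replicates. CTL replicate 1 and MS + Blebb. replicate 2 are low for the first 3 genes and high for Herpud1, Atf4 and Ddit3.

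The co-chaperones and small ER factors varied by at most 1.65 times between libraries, except for Dnajc3 with 3.58 times. Manf, a small protein that binds BiP and can be secreted, was at 62.1, 73.0 and 74.0 FPKM in CTL, 80.5, 72.7 and 67.1 FPKM in MS and 79.0, 76.6 and 75.4 FPKM in MS + Blebb. All MS + Blebb. libraries were above all CTL libraries, by 0.14 (standard error 0.12) on the log2 scale. This value was 0.065 without CTL replicate 1, the lowest library for Manf. With MS replicate 3 and MS + Blebb. replicate 2 left out as well it was 0.068. Sdf2l1, a partner of the co-chaperone Dnajb11, was at 51.2, 66.2 and 66.7 FPKM in CTL, 57.5, 66.5 and 53.3 FPKM in MS and 65.9, 61.3 and 59.7 FPKM in MS + Blebb. Its groups overlapped, and the lowest libraries were CTL replicate 1 and MS replicate 3.

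Creld2, a stress-induced ER protein that can be secreted, was at 32.6, 45.0 and 46.0 FPKM in CTL, 39.3, 42.2 and 31.2 FPKM in MS and 39.2, 34.5 and 40.1 FPKM in MS + Blebb. Its groups overlapped as well. Dnajb9 (ERdj4), a J-domain co-chaperone known as a target of spliced Xbp1, was at 6.91, 8.22 and 6.55 FPKM in CTL, 8.12, 5.86 and 9.11 FPKM in MS and 6.34, 9.64 and 8.05 FPKM in MS + Blebb. Its highest library was MS + Blebb. replicate 2, where Hspa5 was low. Dnajb11, another J-domain co-chaperone of BiP, had the narrowest range of the 31 genes, from 73.6 to 86.0 FPKM. Dnajc3, a J-domain protein also known to restrain PERK, was named after its values were seen. It was at 4.56, 11.1 and 13.2 FPKM in CTL, 14.8, 8.23 and 10.1 FPKM in MS and 5.95, 4.13 and 12.6 FPKM in MS + Blebb. Its low libraries were those of Hspa5.

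The genes for disulfide formation summed to between 765 and 892 FPKM. Pdia4, an isomerase of the thioredoxin family, was at 88.5, 144 and 151.5 FPKM in CTL, 131, 130.1 and 111 FPKM in MS and 125, 112 and 133 FPKM in MS + Blebb. CTL replicate 1 was the only library below 111 FPKM, and the groups overlapped. Pdia3 works on glycoproteins together with Calr and Canx. It was at 89.1, 117 and 130.0 FPKM in CTL, 139, 95.5 and 136 FPKM in MS and 87.0, 82.0 and 115 FPKM in MS + Blebb. Replicates 1 and 2 of MS + Blebb. were below all MS libraries, and replicate 3 was within their range.

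Pdia6, an isomerase that also acts on the sensors, was at 80.0, 98.3 and 112 FPKM in CTL, 116, 107 and 95.4 FPKM in MS and 85.0, 73.8 and 108 FPKM in MS + Blebb. Here too, replicates 1 and 2 of MS + Blebb. were below all MS libraries. P4hb, the classical protein disulfide isomerase, stayed between 411 and 536 FPKM. Ero1l, an oxidase that recharges the isomerases and is also known to respond to hypoxia, was at 18.5, 20.3 and 30.1 FPKM in CTL, 44.4, 19.6 and 28.5 FPKM in MS and 17.6, 14.7 and 31.9 FPKM in MS + Blebb. MS replicate 1 stood above all others. Ero1lb, the second oxidase, was far lower, at 1.62, 2.18 and 2.40 FPKM in CTL, 2.14, 1.57 and 2.46 FPKM in MS and 1.33, 1.54 and 1.59 FPKM in MS + Blebb. All MS + Blebb. libraries were below all CTL libraries for this gene.

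The sensors were expressed at low levels and Xbp1 at a higher one. Xbp1, the transcription factor downstream of Ern1, was at 47.7, 48.4 and 47.8 FPKM in CTL, 46.6, 48.4 and 48.2 FPKM in MS and 51.8, 69.5 and 43.1 FPKM in MS + Blebb. The 6 CTL and MS libraries lay within 46.6 to 48.4 FPKM, whereas MS + Blebb. held both the highest library (replicate 2) and the lowest (replicate 3). FPKM counts both forms of this mRNA, so splicing was not measured. The log2 fold change of MS + Blebb. against MS was 0.17 (standard error 0.16), and it was -0.013 without MS + Blebb. replicate 2. Ern1 was at 5.27, 4.24 and 4.62 FPKM in CTL, 3.84, 3.65 and 4.76 FPKM in MS and 4.35, 5.58 and 4.51 FPKM in MS + Blebb., with all groups overlapping. Eif2ak3 stayed between 8.14 and 10.0 FPKM. Atf6, named after its values were seen, had a wider range, from 6.63 FPKM in MS + Blebb. replicate 1 to 19.2 FPKM in MS replicate 3, and its second highest value was 14.6 FPKM in CTL replicate 1.

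The genes of ER-associated degradation, which return misfolded proteins to the cytosol, were led by Derl1 (63.4 FPKM on average) and Herpud1 (55.5 FPKM). Herpud1, a membrane protein of the Hrd1 ligase complex and a target of several branches of the response, was at 74.1, 48.5 and 44.5 FPKM in CTL, 39.3, 43.4 and 65.5 FPKM in MS and 58.1, 84.5 and 41.3 FPKM in MS + Blebb. The libraries highest for Herpud1 were those lowest for Hspa5. Its log2 fold change of MS + Blebb. against MS was 0.28 (standard error 0.30), 0.024 without MS + Blebb. replicate 2 and 0.24 without the 3 libraries. The ratio of Herpud1 to Hspa5, chosen after the values were seen, was 1.44, 0.300 and 0.264 in CTL, 0.212, 0.324 and 0.538 in MS and 0.608, 1.54 and 0.234 in MS + Blebb. The groups overlapped in this ratio too, and CTL replicate 1 and MS + Blebb. replicate 2 were the only libraries above 1.

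Syvn1, the ligase Hrd1 itself, was at 17.5, 21.9 and 21.7 FPKM in CTL, 15.2, 20.0 and 17.9 FPKM in MS and 21.3, 18.8 and 17.3 FPKM in MS + Blebb. MS replicate 1 was the lowest and the groups overlapped. Its adaptor Sel1l ranged from 12.1 to 21.0 FPKM, the mannosidase-like Edem1 from 18.0 to 28.3 FPKM, Selenos, a selenoprotein of the same pathway, from 15.2 to 26.6 FPKM, and Derl1 from 55.0 to 77.0 FPKM. Derl2, a derlin of the retrotranslocation channel that was named after its values were seen, was at 16.9, 17.2 and 18.2 FPKM in MS and 15.6, 16.6 and 13.9 FPKM in MS + Blebb. The 2 groups did not overlap. Derl3, a derlin known from secretory cells, was listed at 0 in all CTL and MS libraries and at 0.0145, 0.0184 and 0.0170 FPKM in MS + Blebb. (exact two-sided permutation test, p = 0.1, the smallest that 3 against 3 libraries allow). Such values are too near 0 for a fold change.

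The translocon genes varied by at most 1.60 times. Sec61a1, the channel subunit, stayed between 145 and 202 FPKM, Sec61b, its small partner, between 98.1 and 135.5 FPKM, and Ssr1, a subunit of the TRAP complex beside the channel, between 15.3 and 24.5 FPKM. CTL replicate 1 was lowest for both Sec61b and Ssr1. MS + Blebb. replicate 2 was highest for Sec61a1.

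**Figure D4:**
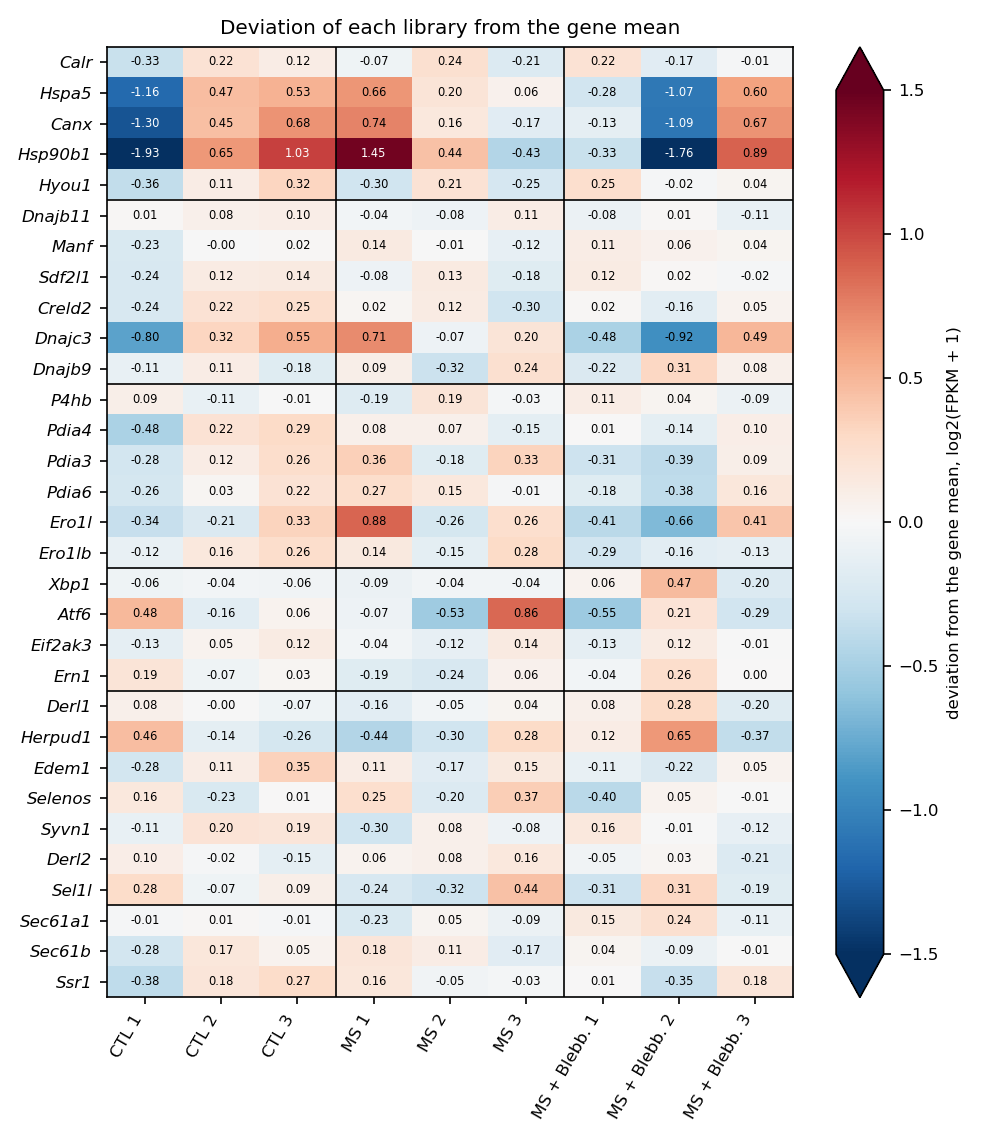
Deviation of each library from the mean of the gene over all 9 libraries, log2(FPKM + 1), for the 31 tested genes in the order of their roles. Blue is below and red above the mean, colors stop at 1.5, and the numbers in the cells are the deviations. CTL replicate 1 and MS + Blebb. replicate 2 are the bluest columns for Hspa5 (-1.16 and -1.07), Canx and Hsp90b1.

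As the map of deviations shows, the libraries fell on different sides for different roles. The 9 tested genes with an ERSE were all below their mean in CTL replicate 1 and all below it in MS + Blebb. replicate 2. These deviations were unequal, from -0.11 (Syvn1) to -1.93 (Hsp90b1) in CTL replicate 1. In MS + Blebb. replicate 2 they ran from -0.0096 to -1.76 for the same genes. The share of all genes tested below their mean in these libraries was not counted. Below the mean were 0 of 9 in CTL replicates 2 and 3, 2 each in MS replicates 1 and 2, 6 each in MS replicate 3 and in MS + Blebb. replicate 1, and 3 in MS + Blebb. replicate 3. Of the 17 tested genes whose matched promoter held no exact ERSE, 10, 8 and 5 were below the mean in CTL, 8, 12 and 6 in MS and 10, 6 and 10 in MS + Blebb. The median GC content was 45.6% for the former and 47.7% for the latter. FPKM moved with GC content in each library to a different degree, and across the 31 genes, which are not independent replicates, r between deviation and GC content was lowest in MS replicate 1 (-0.65) and highest in MS + Blebb. replicate 1 (0.70). Hsp90b1 and Canx, with GC contents of 42.1% and 42.2%, are among the lowest in this respect, although Dnajb9 at 40.6% was highest in MS + Blebb. replicate 2. After removal of the GC trend in each library, the log2 fold change of Hsp90b1 was 0.39 for straining (MS against CTL) and -0.59 for MS + Blebb. against MS. Ero1lb, which has an ERSE, was then highest in CTL replicate 1, so not all 9 genes were below their mean there. The part of GC content in the spread of the chaperones was not tested further. In bulk samples, fewer cells of a kind and less RNA per cell cannot be told apart.

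For the effect of cyclic straining, MS was compared with CTL. On the log2(FPKM + 1) scale, which understates the change of low genes, the 31 genes lay between -0.20 (Syvn1) and 0.57 (Hsp90b1). In total 13 of 31 were above 0, against 49.5% of all genes tested, and the median was -0.0087, against -0.0018 over all 10109 genes tested. Of the 31 genes, 0 had an adjusted p under 0.05 (limma with Benjamini-Hochberg adjustment), against 0 (0%) of all genes tested. The count at an unadjusted p under 0.05 was also 0 of 31 in limma, against 16 of all genes tested (0.158%). No gene of the 31 had groups that did not overlap, against 3.17% of all genes tested (0.524% higher and 2.64% lower in MS). The smallest unadjusted p values belonged to Syvn1 (-0.20, standard error 0.15), Ern1 (-0.17, standard error 0.16) and Ero1l (0.37, standard error 0.35), each with an adjusted p of 1.00 in limma. The 95% confidence interval stayed within -1 to 1 for 26 of the 31 genes, so that for these a change of 2 times or more lay outside it. The wider intervals were those of Hspa5, Hsp90b1, Canx, Dnajc3 and Ero1l. With CTL replicate 1, MS replicate 3 and also MS + Blebb. replicate 2 left out, the median was -0.10, with 8 genes above 0, and the median of all genes tested was -0.046.

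MS + Blebb. was compared with MS, which differs from it in blebbistatin where both were strained. This comparison shares the MS libraries with the first. The 31 genes lay between -0.89 (Hsp90b1) and 0.28 (Herpud1), with 14 above 0 (49.0% of all genes tested) and a median of -0.022 (-0.0059 for all genes tested). Below 0 were 3 of 5 ATPase and lectin chaperones, 2 of 6 co-chaperones and small factors, 5 of 6 genes for disulfide formation, 1 of 4 sensors with Xbp1, 4 of 7 genes of ER-associated degradation and 2 of 3 translocon genes. Of the 31 genes, 0 had an adjusted p under 0.05 (limma with Benjamini-Hochberg adjustment, smallest adjusted p = 0.897), against 0 (0%) of all genes tested. The count at an unadjusted p under 0.05 was 0 of 31 in limma, against 126 of all genes tested (1.25%). The smallest p values belonged to Pdia3 (-0.38, 95% confidence interval -0.84 to 0.091), Ero1lb (-0.29, -0.68 to 0.11) and Pdia6 (-0.27, -0.67 to 0.13). Of the 31 genes, only Derl2 had groups that did not overlap, lower in MS + Blebb. (-0.17, standard error 0.12), and 0.683% of all genes tested were lower in this way. With the GC trend removed, the value of Derl2 turned to 0.11 and its groups overlapped. Of all genes tested, 3.73% had groups without overlap in either direction and 3.05% were the higher ones in MS + Blebb. The interval stayed within -1 to 1 for 25 of the 31 genes. Without the same 3 libraries the median was -0.0064 (-0.011 for all genes tested).

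MS + Blebb. was also compared with CTL, which shares libraries with both comparisons above. The 31 genes lay between -0.34 (Atf6) and 0.16 (Xbp1), with 12 above 0 (46.0% of all genes tested) and a median of -0.078 (-0.013 for all genes tested). Of the 31 genes, 0 had an adjusted p under 0.05 (limma with Benjamini-Hochberg adjustment), against 0 (0%) of all genes tested. The count at an unadjusted p under 0.05 was 0 of 31 in limma, against 9 of all genes tested (0.0890%). The smallest p values belonged to Ero1lb (-0.30, standard error 0.18), Manf (0.14, standard error 0.12) and Dnajb11 (-0.12, standard error 0.10). The groups of 2 of the 31 genes did not overlap, against 2.08% of all genes tested. Manf was higher, as were 0.930% of all genes, and Ero1lb was lower, as were 1.15%. With the GC trend removed, the groups of Ero1lb overlapped (-0.18) and those of Manf still did not (0.15). Without CTL replicate 1 the values were -0.41 for Ero1lb and 0.065 for Manf. The interval stayed within -1 to 1 for 26 of the 31 genes. Without the 3 libraries the median was -0.13, with 5 genes above 0, and that of all genes tested was -0.044.

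**Figure D5:**
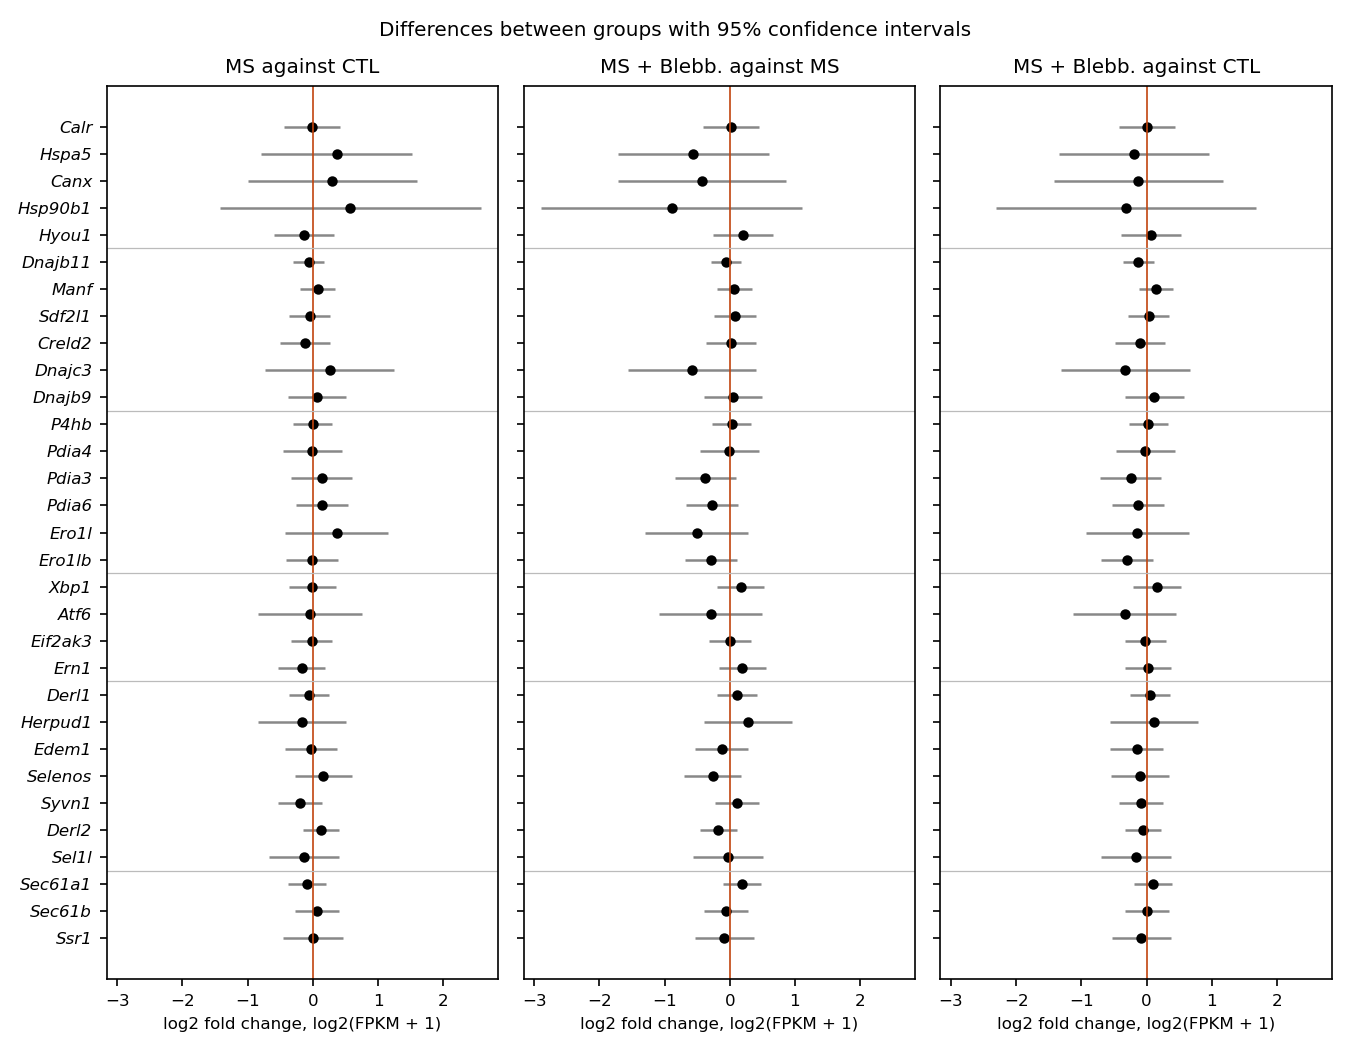
Log2 fold change of the 31 tested genes on the log2(FPKM + 1) scale (points) with 95% confidence intervals (lines) in each of the 3 comparisons, in the order of their roles. Every interval crosses 0, and those of Hsp90b1 are the widest, from -1.43 to 2.57 in MS against CTL.

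The plot of differences shows an interval across 0 for every gene in every comparison. The median width of the intervals was 0.80 on the log2 scale, which is the precision that 3 libraries a group gave for these genes.

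A wider list of 74 genes of the same pathways was counted in the same fit, and all 74 were tested. It holds the PERK branch and its output, other folding enzymes, other degradation factors, translocation and signal peptidase, N-glycosylation, and other sensors. In limma with Benjamini-Hochberg adjustment, 0 of 74 passed an adjusted p of 0.05 in each comparison. With an unadjusted p under 0.05 there were 0 in MS against CTL, 1 higher and 1 lower in MS + Blebb. against MS, and 1 higher in MS + Blebb. against CTL, where 0.158%, 1.25% and 0.0890% of all genes tested had such a p. The medians were 0.025, 0.018 and 0.027 on the log2 scale. In MS against CTL the smallest p values belonged to Ufd1, a cofactor of the extracting ATPase Vcp (0.31), Srp54a of the signal recognition particle (0.45) and the ER reductase Dnajc10 (0.39). In MS + Blebb. against MS they belonged to Cebpb, a transcription factor (0.47, adjusted p = 0.897, limma), Srp54a (-0.89) and Ufd1 (-0.44). In MS + Blebb. against CTL they belonged to Cebpb (0.36), Ssr2 of the TRAP complex (0.18) and Vcp (-0.16). Cebpb was at 13.5, 13.1 and 13.2 FPKM in CTL, 13.6, 11.2 and 12.0 FPKM in MS and 16.4, 20.6 and 15.3 FPKM in MS + Blebb. All MS + Blebb. libraries were above all others. The groups did not overlap for 1, 2 and 2 of the 74 genes in the order above, against 3.17%, 3.73% and 2.08% of all genes tested. Beside Cebpb these are Vcp, lower in MS + Blebb. than in MS, and Atf6b (lower in MS than in CTL) and Rnf5 (higher in MS + Blebb. than in CTL), both named after their values were seen.

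Of the 8 genes listed for the PERK branch and its output, 6 (Atf4, Ddit3, Trib3, Ppp1r15a, Chac1 and Sesn2) had the highest value of each group in CTL replicate 1, MS replicate 3 and also MS + Blebb. replicate 2. The other two, Cebpb and Eif2s1, were not, and Eif2s1, the translation factor that PERK phosphorylates, was lowest in CTL replicate 1 (14.0 FPKM) and highest in MS replicate 1 (43.2 FPKM). The order and the genes described next were chosen after the values were seen. Atf4, the transcription factor of this branch, was at 337, 126 and 132 FPKM in CTL, 143, 129 and 280.5 FPKM in MS and 174, 319 and 141 FPKM in MS + Blebb. Ddit3 (CHOP), its pro-apoptotic target, was at 137, 24.7 and 18.5 FPKM in CTL, 45.7, 25.8 and 99.1 FPKM in MS and 23.6, 131 and 22.4 FPKM in MS + Blebb. Trib3, a pseudokinase induced by both, was at 153, 21.2 and 19.4 FPKM in CTL, 36.4, 22.0 and 103 FPKM in MS and 41.7, 183 and 23.7 FPKM in MS + Blebb. The groups overlapped for each of these 3 genes. Atf4 differed by -0.038 (standard error 0.46) in MS against CTL. It differed by 0.20 (standard error 0.46) in MS + Blebb. against MS. Without the 3 libraries these values were 0.075 and 0.20. Ddit3 differed by 0.28 (standard error 0.89) in MS against CTL, and by 0.66 (standard error 0.27, adjusted p = 1.00, limma) without them. The libraries left out were the highest of their groups for Ddit3. Its smaller standard error therefore follows from that choice and is no gain in precision.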

How the data were processed

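RNA extracted with TRIzol from B16 cells was sequenced in 9 libraries, 3 in each group, and libraries were prepared with a SMARTer mRNA-Seq kit per the labels. The authors deposited 1 FPKM value per gene and library, scaled by gene length and mapped fragments. The submitters' processing notes name GRCm38 (mm10), and the aligner, the counter and the annotation are not given in the sources used here. In CTL replicate 1 the value column carries the sample name as its header and was taken as FPKM. The sample titles gave the groups and the replicate numbers.

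Values were used as log2(FPKM + 1), and 10109 genes whose mean reached 1 FPKM were fitted with limma 3.58.1 in R 4.3.3 on all 9 libraries, with a mean-variance trend, two-sided tests, Benjamini-Hochberg adjustment and a threshold of 0.05. The fit was tested on simulated data with independent noise for each gene and library, which leaves out the spread that genes share in these libraries. Derl3, under the minimum, was compared by exact permutation. Depth is unknown, so no counting intervals are given. GC content was taken from GENCODE M21 transcripts (95.6% of genes tested). Figures were drawn with matplotlib 3.10.9 in Python 3.11.15.

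The members and lists were chosen with earlier results of these data known. By the rule for named genes, Hspa5, Hsp90b1, Hyou1, Calr, Dnajb9, Sdf2l1, Manf, Creld2, Pdia4, Xbp1, Herpud1 and Ero1l are given in every library, as are the 3 members with the smallest p in each comparison and any member under 1 FPKM. Of the wider list, the 3 genes with the smallest p in each comparison are named. The alternatives were a pseudocount of 0.1, no minimum or 5 FPKM, median-of-ratios factors, no trend, quantile normalization, a fit on the compared groups alone, a replicate block, each library left out, removal of the GC trend (loess, span 0.5), a library block that set apart CTL replicate 1, MS replicate 3 and also MS + Blebb. replicate 2, and leaving these 3 out.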

Additional observations from a re-analysis of the deposited data

How the results depend on the processing

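With 3 libraries a group and FPKM of unknown depth, small differences could not be resolved. None of the 106 genes of both lists passed the adjusted threshold in any comparison under the alternatives run (lowest adjusted p = 0.45, limma), so directions below are of differences within the spread between replicates. The median log2 fold changes of the 31 genes moved by less than 0.12, the pooled SD within groups of the library medians of their deviations. Some changed sign all the same. In MS against CTL the median was -0.093 without CTL replicate 1 and 0.044 without CTL replicate 3. In MS + Blebb. against CTL it was -0.15 and 0.029 without the same libraries. With 1 library left out, that of MS + Blebb. against MS ran from -0.096 to -0.013. For 43 pairs of gene and comparison under alternatives other than leaving out 1 library, 456 of 470 single-gene values kept their direction and 14 did not. The changed minimum, the fit with no trend, the fit on the compared groups and both blocks leave a log2 fold change as it was. They could not change a direction, so all 14 came from the other alternatives, and 456 of 470 overstates the stability.

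The number of members at an unadjusted p under 0.05 in MS + Blebb. against MS was 0. It was 1 with no minimum (Derl3) and 2 with the library block (Hsp90b1 and Pdia6). With 1 library left out it was between 0 and 6, with 6 without MS + Blebb. replicate 3 (Dnajc3, Xbp1, Ero1l, Sec61a1, Pdia6 and Pdia3, with 934 of all 10109 genes) and 1 without MS replicate 2 (Pdia3, with 598 of all genes). In MS + Blebb. against CTL it was 1 with no minimum (Derl3). The genes called over all genes tested were between 0 and 1 both for MS against CTL and for MS + Blebb. against MS, with 1 only without MS replicate 2. Counts over all genes at an unadjusted p under 0.05, in the order of the comparisons in the report, were 16, 126 and 9, and they were 183, 382 and 183 with no minimum and 124, 586 and 67 with the library block. With 1 library left out they ran from 7 (without MS replicate 1) to 115 (without MS replicate 2), from 34 (without MS replicate 1) to 934 and from 7 (without MS + Blebb. replicate 1) to 94, where 934 and 94 left out MS + Blebb. replicate 3. The cause was not tested.

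With the GC trend removed, MS against CTL turned to -0.15 for Dnajb9, 0.039 for Sdf2l1 and 0.047 for Xbp1, and MS + Blebb. against MS to -0.045 for Sdf2l1, -0.080 for Creld2 and 0.12 for Pdia4. Quantile normalization gave 0.0069 for Xbp1 in MS against CTL and -0.0072 for Creld2 in MS + Blebb. against MS, and median-of-ratios factors gave 0.024 for Pdia4 in the latter. Without CTL replicate 1, MS replicate 3 and also MS + Blebb. replicate 2, MS against CTL was -0.065 for Hspa5 and -0.077 for Dnajb9, MS + Blebb. against MS was -0.035 for Creld2 and -0.0064 for Xbp1, and MS + Blebb. against CTL was -0.024 for Xbp1.

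With 1 library left out, 16 of these 43 pairs changed direction. In MS against CTL the lowest values, without CTL replicate 1, and the highest, without CTL replicate 3, were -0.19 and 0.66 for Hspa5, -0.35 and 1.13 for Hsp90b1, -0.33 and 0.015 for Hyou1 and -0.25 and 0.13 for Pdia4. Calr ran from -0.18 (without CTL replicate 1) to 0.096 (without CTL replicate 2), Dnajb9 from -0.051 (without MS replicate 3) to 0.23, Sdf2l1 from -0.17 (without CTL replicate 1) to 0.021 (without MS replicate 3), Manf from -0.0061 (without CTL replicate 1) to 0.14, Xbp1 from -0.017 to 0.010 (without MS replicate 1) and Herpud1 from -0.39 to 0.053 (without CTL replicate 1). In MS + Blebb. against MS, Calr ran from -0.079 (without MS + Blebb. replicate 1) to 0.15, Dnajb9 from -0.11 (without MS replicate 2) to 0.19, Creld2 from -0.10 (without MS replicate 3) to 0.11, Pdia4 from -0.085 to 0.057 (without MS + Blebb. replicate 2) and Xbp1 from -0.013 (without MS + Blebb. replicate 2) to 0.32. In MS + Blebb. against CTL, Xbp1 ran from -0.020 (without MS + Blebb. replicate 2) to 0.32.

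Replicate numbers did not pair the libraries, with r between deviations from -0.78 to 0.84 over the 9 pairs of the same number and from -0.88 to 0.92 over the 18 of different numbers, and 2 of 9 libraries correlated best with their own number. With the replicate block, 0 genes were called and 0 members had an unadjusted p under 0.05 in each comparison, while 14, 119 and 10 of all genes did.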
